A study of Mus musculus with 6 samples.

Results

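The insulin-like growth factor (IGF) system of brown adipocytes was described through 10 genes, the ligands Igf1 and Igf2, the receptors Igf1r and Igf2r, and the binding proteins Igfbp2 to Igfbp7. Members were found by gene symbol among the 22466 symbols with a RefSeq transcript in the deposited table, and all 10 were present. Where a symbol had several RefSeq rows, the row was chosen by its mean abundance over all 6 cultures, so that levels, but not genotype differences, entered the choice. The data are RNA sequencing of primary brown adipocytes, grown from precursors of the interscapular brown fat depot and differentiated in culture. WT cells were represented by replicates 10, 11 and 12 and Ucp1-KO cells by replicates 13, 14 and 15, all from mice of the strain labelled 129SvEvS1. Uncoupling protein 1 (UCP1) is the mitochondrial carrier that lets brown fat burn fuel for heat, and the Ucp1-KO cells came from mice without this protein, with no Cre line named in the labels. The donor mice were male and 5 to 6 weeks old, and cells of both genotypes were induced for 2 days with isobutylmethylxanthine, indomethacin, dexamethasone, insulin, T3 and rosiglitazone and then kept for 7 days with serum, insulin, T3 and rosiglitazone. Insulin and serum, which itself carries IGFs and their binding proteins, were therefore part of the medium of all 6 cultures. The labels speak of independent cultures and do not say whether each came from other animals, so that p-values measure the spread between cultures.

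IGF1 and IGF2 are secreted peptides related to insulin. They signal through IGF1R, a receptor tyrosine kinase that resembles the insulin receptor, whereas IGF2R takes up IGF2 for degradation in lysosomes and does not signal as a kinase. IGF-binding proteins are secreted carriers that hold most IGF outside cells, lengthen its life and limit or direct its access to the receptor. In cultured preadipocytes, IGF1 and insulin promote growth and adipose differentiation.

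Of the 10 members, 5 held a GC box in the 250 bases before their RefSeq start (GGGCGG, searched on both strands), the site that Sp1-type factors bind, against 32.7% of the 32851 promoters of the same length. These 5 were Igf2, Igf2r, Igf1r, Igfbp2 and Igfbp7. The promoters shown include those of Igfbp2, Igf1r and Igfbp7, for which all Ucp1-KO cultures lay below all WT cultures (5.15% of tested transcripts). Igf2 and Igf2r held a GC box too, but their genotypes overlapped, and a link between GC boxes and genotype was not tested. Igfbp4 is also shown, which held no GC box but a TATA box (TATAAA, searched on both strands, 12.4% of all promoters, 2 of 10 members). Capitals mark GC boxes, on either strand, and in Igfbp4 the TATA box. All sequences are from RefSeq on GRCm38.p6, written along the strand of the gene and ending at the base before the start. The windows were chr1:72824230-72824479 (+) for Igfbp2, chr7:67952007-67952256 (+) for Igf1r, chr5:77408046-77408295 (−) for Igfbp7 and chr11:99040994-99041243 (+) for Igfbp4.
Igfbp2: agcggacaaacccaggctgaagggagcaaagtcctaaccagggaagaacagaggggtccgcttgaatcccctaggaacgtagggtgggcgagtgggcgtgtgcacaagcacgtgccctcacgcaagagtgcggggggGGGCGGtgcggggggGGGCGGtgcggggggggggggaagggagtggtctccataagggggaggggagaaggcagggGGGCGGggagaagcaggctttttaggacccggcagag
Igf1r: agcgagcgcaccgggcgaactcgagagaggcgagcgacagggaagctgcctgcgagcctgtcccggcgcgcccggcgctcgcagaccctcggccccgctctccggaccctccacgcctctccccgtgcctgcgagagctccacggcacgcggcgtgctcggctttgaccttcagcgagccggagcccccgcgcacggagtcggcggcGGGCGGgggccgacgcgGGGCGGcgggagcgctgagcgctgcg
Igfbp7: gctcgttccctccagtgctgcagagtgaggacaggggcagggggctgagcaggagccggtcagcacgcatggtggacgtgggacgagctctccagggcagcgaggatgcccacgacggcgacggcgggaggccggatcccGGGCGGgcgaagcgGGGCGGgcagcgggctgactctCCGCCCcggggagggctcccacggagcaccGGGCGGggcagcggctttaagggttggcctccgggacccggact
Igfbp4: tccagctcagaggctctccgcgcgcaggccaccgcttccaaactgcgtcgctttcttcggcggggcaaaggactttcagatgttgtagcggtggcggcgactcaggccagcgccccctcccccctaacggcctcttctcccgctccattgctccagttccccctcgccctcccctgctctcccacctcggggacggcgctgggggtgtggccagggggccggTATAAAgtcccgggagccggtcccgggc
The Igfbp2 window held 3 GC boxes, that of Igf1r 2 and that of Igfbp7 4. GC content was 67.2% for Igfbp2, 77.6% for Igf1r and 74.0% for Igfbp7, with a median of 68.2% over the 10 members and 52.4% over all promoters. The E-box CACGTG was found in 2 of 10 members (6.02% of all promoters) and CCAAT in 3 of 10 (33.8%), again on both strands. A match is a string of letters in this window and not a measured binding site. The Igf1r start of RefSeq lay 570 bases before that of the GENCODE transcript, and the Igf1 transcript used here had no counterpart in GENCODE M21.

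Abundance is given in RPKM, read numbers scaled to transcript length and library size, so that genes of different length can be set side by side. Low values moved in steps of 1 read, and these steps put the library totals at 14989604 to 17727653 reads, a depth at which 3 reads on 2000 bases of transcript equal 0.0846 to 0.1001 RPKM. This floor covers counting error only. The targeted gene followed the labels: Ucp1 was at 1775, 981 and 1157 RPKM in the WT cultures and at 307, 409 and 398 RPKM in the Ucp1-KO cultures, where a remnant transcript is still made. Its log2 fold change was -1.78 (SE 0.24) with the smallest unadjusted p of all 16865 RefSeq transcripts tested (1.57e-04, limma), yet its adjusted p was 0.868. Not one transcript passed an adjusted p of 0.05 in limma (0.0% of those tested) or in limma-voom on the reads, whereas 935 and 897 transcripts had an unadjusted p under 0.05. Cultures also differed in marker genes of other cell types. The WT 11 culture held the highest sum of 12 stromal and preadipocyte markers (1707 RPKM, against 745 and 1034 in the other WT cultures and 631 to 1004 in Ucp1-KO) and of 6 endothelial markers (34.8 RPKM, against 2.91 to 16.3 elsewhere). The summed adipocyte markers, led by Fabp4 and Adipoq, lay between 29174 and 32368 RPKM in all cultures. Brown adipocyte markers, led by Ucp1 itself and Cidea, summed to 2591 to 3287 RPKM in WT cultures and 1719 to 2821 RPKM in Ucp1-KO cultures. Without Ucp1, the targeted gene, this sum was 1513, 1609 and 1780 RPKM in WT and 1413, 1933 and 2423 RPKM in Ucp1-KO, and 5 of the 6 remaining markers had the higher estimate in Ucp1-KO. The sums of mural markers (Acta2, Cspg4) were 117 to 204 RPKM in WT and 38.9 to 167 RPKM in Ucp1-KO, those of macrophage markers (Cd68, C1qa) 22.0 to 76.8 and 12.6 to 223 RPKM, and those of muscle markers (Acta1, Myog) 2.55 to 6.19 and 2.39 to 10.7 RPKM, with the muscle stem cell marker Pax7 at 0. The WT 10 library was closer to Ucp1-KO 13, with a chi-square of read numbers per transcript of 13.2, than to WT 12 (25.3) or WT 11 (35.9). Ucp1-KO 14 and Ucp1-KO 15 were also closer to WT 12 (24.0 and 22.8) than to each other (27.7). The closest pair of all was WT 11 and WT 12 (11.4). In such bulk RNA, fewer cells of a type and less RNA per cell cannot be told apart.

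By abundance the family was led by a pair of binding proteins. Averaged over the 6 cultures, Igfbp7 stood at 182 RPKM and Igfbp4 at 103 RPKM, followed by Igf1 (22.5), Igfbp6 (19.6), Igfbp3 (17.9), Igf2r (8.01), Igfbp5 (5.95), Igfbp2 (3.69), Igf1r (1.72) and Igf2 (1.35 RPKM). Of the 9 steps in this order, only that from Igfbp4 to Igf1 separated the ranges of the 6 cultures, by a ratio of means of 4.58. At every other step the ranges of the neighbours overlapped, although Igfbp7 exceeded Igfbp4 within each of the 6 cultures. Igfbp7 ranked 337th and Igf2 14795th by abundance among the 28890 RefSeq transcripts. These levels are a description, since abundance was used to choose the rows.

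**Figure D1:**
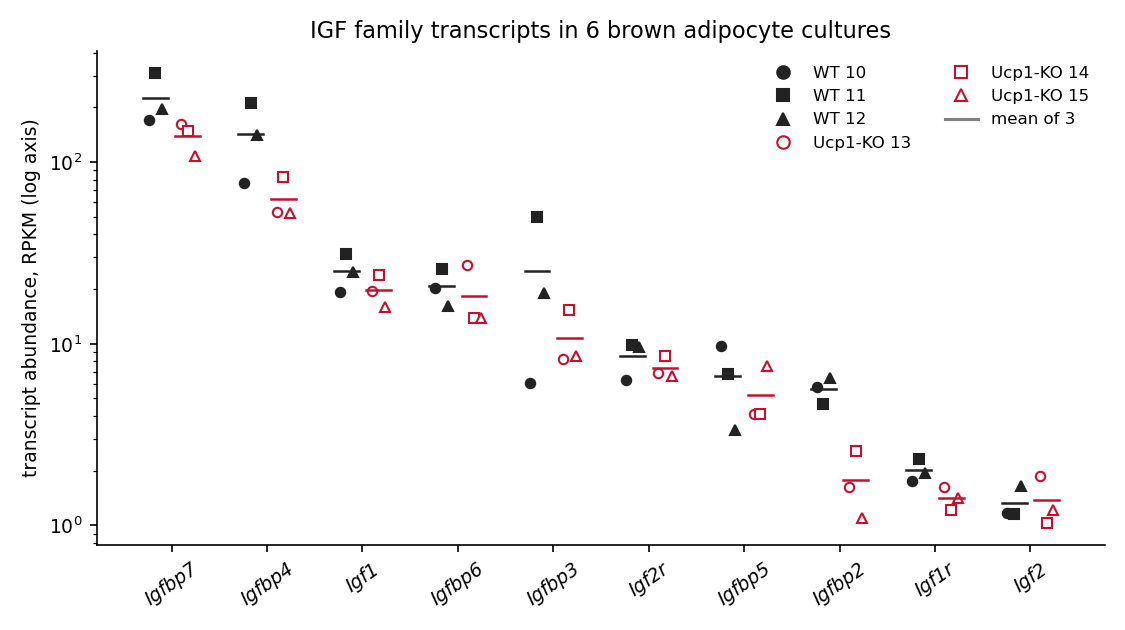
Transcript abundance of the 10 IGF family genes in RPKM (vertical log axis), ordered by the mean over all cultures (horizontal axis). Each symbol is 1 culture, filled for WT and open for Ucp1-KO, and lines are means of 3 cultures. Igfbp7 and Igfbp4 lie highest, and only for Igfbp2, Igf1r and Igfbp7 do all Ucp1-KO cultures lie below all WT cultures.

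No member passed an adjusted p of 0.05 between the genotypes in limma or in limma-voom. In each of the 2 analyses 4 of 10 members had an unadjusted p under 0.05 (Igf1r, Igfbp2, Igfbp4 and Igfbp7), all with the lower mean in Ucp1-KO, beside 3.24% of all tested transcripts on that side, 2.3% on the other and 5.54% in either direction. All Ucp1-KO values lay below all WT values for 3 members (Igfbp2, Igf1r and Igfbp7), a pattern seen in 5.15% of tested transcripts, and for none did they lie above (6.04%). The Ucp1-KO estimate was lower for 9 of 10 members, Igf2 being the exception, against 50.4% of tested transcripts, and the median log2 fold change of the members was -0.32 against -0.0016 for all tested. Single cultures stood out: 6 of the 10 were highest in WT 11 (Igf1, Igf1r, Igf2r, Igfbp3, Igfbp4 and Igfbp7; 26.8% of all tested transcripts were highest there), and 5 were lowest in Ucp1-KO 15 (26.5% of all tested transcripts). Without WT 11, only Igfbp2 kept an unadjusted p under 0.05, in a fit where 1.88% of all tested transcripts had one in place of 5.54%, and the median of the members was -0.17. The median was -0.49 without WT 12 and lay between these values when any other culture was left out. The number of members with an unadjusted p under 0.05 was 7 without WT 10 (10.4% of all tested transcripts), 2 without WT 12 (2.61%), 4 without Ucp1-KO 13 (9.14%), 2 without Ucp1-KO 14 (3.57%) and 1 without Ucp1-KO 15 (5.16%).

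**Figure D2:**
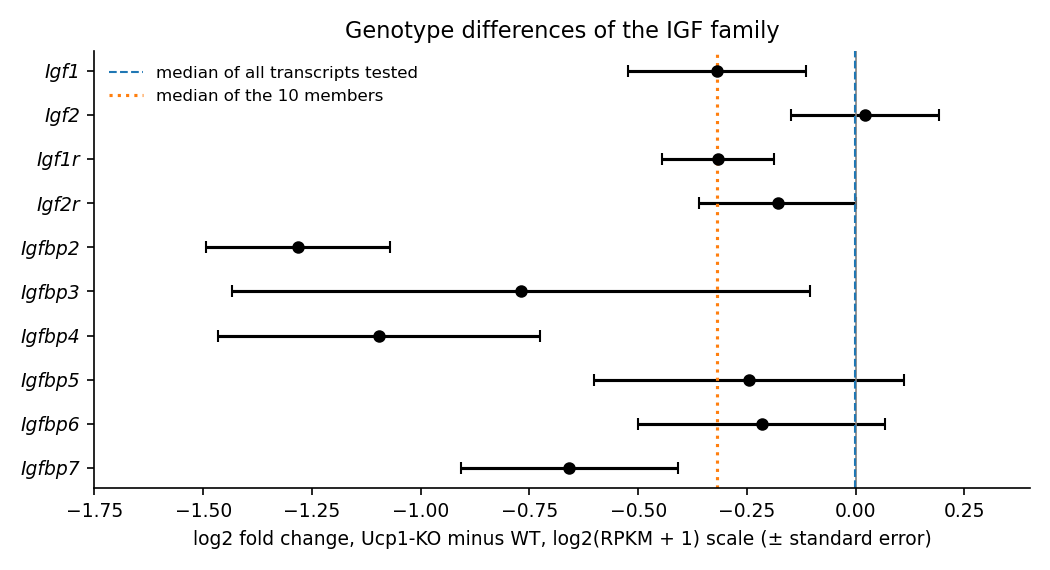
Log2 fold change of each member between Ucp1-KO and WT on the log2(RPKM + 1) scale (horizontal axis; points are limma estimates, bars standard errors, 3 cultures per genotype). The dotted line marks the median of the 10 members at -0.32, the dashed line that of all 16865 transcripts tested, and Igfbp2 lies farthest to the left at -1.28.

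Igf1 was by far the more abundant ligand. Igf1 (gene at chr10:87858265-87937042, + strand) was at 19.3, 31.2 and 24.9 RPKM in WT cultures and at 19.7, 23.9 and 16.0 RPKM in Ucp1-KO cultures. The ranges overlapped, with the WT 11 culture highest and Ucp1-KO 15 lowest. Means were 25.1 ± 5.96 and 19.8 ± 3.98 RPKM (SD, n = 3 each), a log2 fold change of -0.32 (SE 0.21) with an adjusted p of 0.876 in limma. Leaving out single cultures moved it between -0.49 and -0.16. The chosen row is a short transcript of 1087 bases with 260 to 566 reads per culture. The other 4 RefSeq rows of Igf1 spanned 6987 to 7121 bases, held 1651 to 3144 reads and gave smaller estimates of -0.12 to -0.13. Rows of 1 gene share reads and are not independent.

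Igf2, the imprinted fetal growth factor, was scarce (gene at chr7:142650766-142666816, − strand). WT cultures held 1.17, 1.15 and 1.65 RPKM and Ucp1-KO cultures 1.88, 1.04 and 1.21 RPKM, from 66 to 112 reads. Both the highest and the lowest value were in Ucp1-KO cultures. The log2 fold change of 0.021 (SE 0.17, adjusted p = 0.989 in limma) changed sign in 3 of 6 fits that left out 1 culture. Igf1 exceeded Igf2 between 15.1 and 27.1 times in WT and between 10.5 and 23.0 times in Ucp1-KO cultures. TruSeq libraries of this kind do not mark the strand, so that reads of Igf2 cannot be told apart from those of the antisense gene Igf2os where exons overlap, nor those of Igf1 from Igf1os.

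Igf1r, the signalling receptor, was scarce but separated the genotypes. Igf1r (chr7:67952827-68233668, + strand, 21 exons) was at 1.76, 2.33 and 1.95 RPKM in WT cultures and at 1.63, 1.21 and 1.41 RPKM in Ucp1-KO cultures. Every Ucp1-KO culture lay below every WT culture, by a narrow margin between WT 10 and Ucp1-KO 13. Over all annotations, 6 of the 14 rows of Igf1r (11 of them at the minimum abundance) separated the genotypes in this way. The Ucp1-KO mean was 70.4% of the WT mean (1.42 ± 0.211 against 2.01 ± 0.292 RPKM, SD, n = 3 each). The exact two-sided permutation test gave p = 0.1, the smallest value that 3 against 3 cultures allow. On the log2(RPKM + 1) scale the difference was -0.32 (SE 0.13, unadjusted p = 0.0435, adjusted p = 0.868 in limma). This scale understates changes of scarce transcripts, and limma-voom on the 250 to 466 reads behind each value gave -0.51 (adjusted p = 0.874).

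Igf2r, the clearance receptor, was more abundant and its genotypes overlapped. Igf2r (chr17:12682406-12769664, − strand, 48 exons) was at 6.34, 9.90 and 9.61 RPKM in WT cultures and at 6.91, 8.62 and 6.69 RPKM in Ucp1-KO cultures. The lowest value was in WT 10, below all Ucp1-KO cultures. The log2 fold change of -0.18 (SE 0.18) had an adjusted p of 0.901 in limma and ran from -0.36 to -0.078 when single cultures were left out. Airn, the antisense RNA that overlaps Igf2r, was listed at 0.595 ± 0.0858 RPKM in WT cultures and 0.582 ± 0.411 RPKM in Ucp1-KO cultures (SD, n = 3 each), from 6 to 20 reads that cannot be told apart by strand from those of Igf2r where the transcripts overlap.

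The insulin receptor, which binds insulin with high affinity and shares its downstream adaptors with IGF1R, outweighed Igf1r in all cultures. Insr was at 14.8, 13.8 and 14.5 RPKM in WT cultures and at 16.1, 15.1 and 14.2 RPKM in Ucp1-KO cultures. Its log2 fold change was 0.067 (SE 0.088, adjusted p = 0.922 in limma), and the ranges overlapped. Insrr, the orphan receptor of the family, did not exceed 0.012 RPKM. The ratio of Insr to Igf1r was 8.44, 5.90 and 7.44 in WT cultures and 9.85, 12.4 and 10.1 in Ucp1-KO cultures. This ratio was higher in every Ucp1-KO culture than in any WT culture.

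Over all 6 cultures Igfbp2 had the largest estimate of the members, although without WT 10 those of Igfbp3 (-1.49) and Igfbp4 (-1.48) exceeded its -1.26. Igfbp2, a secreted carrier of both IGFs that also binds integrins, lies at chr1:72824503-72852474 (+ strand, 4 exons). WT cultures held 5.77, 4.64 and 6.45 RPKM and Ucp1-KO cultures 1.63, 2.57 and 1.10 RPKM. The lowest WT culture exceeded the highest Ucp1-KO culture 1.80-fold. In reads, these were 131, 103 and 152 in WT and 35, 59 and 22 in Ucp1-KO. The WT mean of 5.62 ± 0.913 RPKM was 3.18-fold that of Ucp1-KO, 1.77 ± 0.745 RPKM (SD, n = 3 each). The log2 fold change of -1.28 (SE 0.21) had the 4th smallest unadjusted p among 16865 transcripts (5.71e-04), an adjusted p of 0.868 in limma and p = 0.1 in the exact two-sided permutation test. Limma-voom on reads gave -1.71, and 0.1 in place of 1 RPKM in the logarithm gave -1.68. Its estimate stayed between -1.48 and -1.10 when any 1 culture was left out, with an unadjusted p of at most 0.00324 in all 6 fits. The table lists 5 rows for Igfbp2 over all annotations, and in all 5 every Ucp1-KO culture lay below every WT culture. WT 11, where 6 members peaked, held the lowest Igfbp2 of the WT cultures.

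Igfbp5, its neighbour on chromosome 1, showed no such pattern. The genes lie tail to tail, with 5457 bases between them (Igfbp5 at chr1:72857932-72874884, − strand). Igfbp5, a carrier that binds extracellular matrix, was at 9.75, 6.85 and 3.37 RPKM in WT cultures and at 4.08, 4.11 and 7.52 RPKM in Ucp1-KO cultures. Ranges overlapped widely, with WT cultures at both ends. The log2 fold change was -0.25 (SE 0.36, adjusted p = 0.930 in limma) and became 0.047 without WT 10.

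Igfbp3, the main carrier of IGFs in blood, was the most variable member. Igfbp3 (chr11:7206086-7213923, − strand) was at 6.08, 50.02 and 18.9 RPKM in WT cultures and at 8.25, 15.3 and 8.62 RPKM in Ucp1-KO cultures. WT cultures held both the highest and the lowest value, an 8.23-fold span. The log2 fold change of -0.77 (SE 0.67, adjusted p = 0.892 in limma) ran from -1.49 to -0.069 when single cultures were left out. Its order over the cultures was close to that of the 6 endothelial markers, whose sum was 2.91, 34.8 and 16.1 RPKM in WT cultures and 7.09, 16.3 and 5.84 RPKM in Ucp1-KO cultures. Both were highest in WT 11 and lowest in WT 10, and all 6 endothelial markers, among them Pecam1 and Cdh5, peaked in WT 11. The part of endothelial cells in the Igfbp3 values was not tested. Its neighbour Igfbp1, 3539 bases away, was listed at 0 in 5 cultures and at 0.041 RPKM in Ucp1-KO 13.

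**Figure D3:**
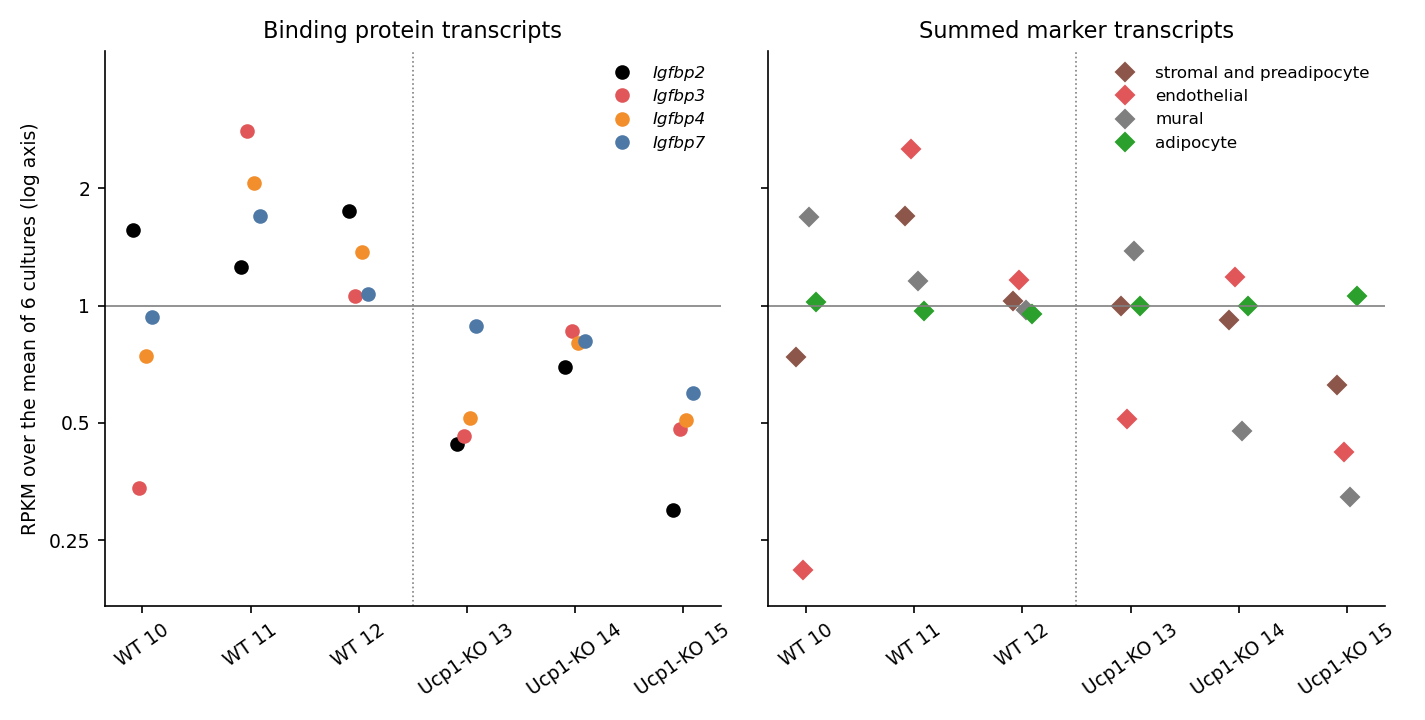
Abundance relative to the mean of the 6 cultures (vertical log axis) for 4 binding proteins (left) and for summed marker transcripts of 4 cell types (right), by culture (horizontal axis; the dotted line divides WT from Ucp1-KO). Igfbp3, Igfbp4 and Igfbp7 peak in WT 11 with the endothelial and stromal markers, whereas Igfbp2 is above its mean in all WT cultures and below it in all Ucp1-KO cultures.

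Igfbp4, which holds IGFs until it is cut by the protease PAPP-A, had a large but overlapping difference. Igfbp4 (chr11:99041244-99054392, + strand) was at 76.6, 212 and 141 RPKM in WT cultures and at 52.9, 82.7 and 52.3 RPKM in Ucp1-KO cultures. Only WT 10 reached into the Ucp1-KO range, below Ucp1-KO 14. The Ucp1-KO mean was 43.7% of WT (62.6 ± 17.4 against 143 ± 67.6 RPKM, SD, n = 3 each), with a log2 fold change of -1.10 (SE 0.37, unadjusted p = 0.0216, adjusted p = 0.868 in limma) and p = 0.2 in the exact two-sided permutation test. It ran from -1.48 to -0.76 when single cultures were left out.

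Igfbp6, which prefers IGF2, did not separate the cultures by genotype. Igfbp6 (chr15:102144362-102149511, + strand) was at 20.4, 25.8 and 16.2 RPKM in WT cultures and at 27.2, 13.95 and 13.87 RPKM in Ucp1-KO cultures. The highest value was in Ucp1-KO 13 and the other Ucp1-KO cultures were lowest. The log2 fold change was -0.22 (SE 0.28) with an adjusted p of 0.921 in limma, and between -0.52 and -0.057 without single cultures.

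Igfbp7, a matrix-associated protein with low affinity for IGFs, was the most abundant member and again separated the genotypes. Igfbp7 (chr5:77349240-77408041, − strand, 5 exons) was at 171, 309 and 195 RPKM in WT cultures and at 161, 148 and 109 RPKM in Ucp1-KO cultures. All Ucp1-KO cultures lay below all WT cultures, with WT 10 and Ucp1-KO 13 close together. The Ucp1-KO mean was 62.0% of WT (139 ± 27.3 against 225 ± 73.8 RPKM, SD, n = 3 each), and the log2 fold change was -0.66 (SE 0.25, unadjusted p = 0.0340, adjusted p = 0.868 in limma; p = 0.1 in the exact two-sided permutation test). Without single cultures it ran from -0.83 to -0.41. Its span overlaps Polr2b and Gm34648 on the other strand, and reads in shared bases cannot be told apart. Markers of other cell types also differed between the cultures. Of the stromal markers, all 9 tested of 12 had the lower estimate in Ucp1-KO with a median log2 fold change of -0.52, 8 of these 9 were highest in WT 11, and the sum of all 12 ranged from 745 to 1707 RPKM in WT cultures and from 631 to 1004 RPKM in Ucp1-KO cultures. All Ucp1-KO cultures lay below all WT cultures for Pdgfra, Dcn (log2 fold change -0.85) and Lum (-1.20), a pattern seen in 5.15% of tested transcripts. The lowest WT culture exceeded the highest Ucp1-KO culture only 1.01-fold for Pdgfra and 1.02-fold for Lum. For the other tested stromal markers the genotypes overlapped. Col1a1 and Col3a1 were the most abundant of this list. Dpp4, at 0 in 2 Ucp1-KO cultures, did not exceed 0.0535 RPKM in any culture and was too scarce to be tested. Mural markers had the lower estimate in Ucp1-KO for 4 of 5 (median -0.55). For Cspg4 and Myh11 all Ucp1-KO cultures lay below all WT cultures. The mural sum was highest in WT 10 and then in Ucp1-KO 13, but most of it was Acta2 (181 and 147 RPKM there). Of the 5 mural markers, 2 were highest in WT 11, Cspg4 among them, as were Igfbp4 and Igfbp7. Endothelial markers had the lower estimate in Ucp1-KO for 5 of 5 tested (median -0.41), whereas macrophage markers had the higher estimate for 4 of 5 (median 0.17), as did the 1 muscle marker tested (0.31). The part of these cells in the values of the binding proteins was not tested.

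Summed over the 6 binding proteins, the transcripts came to 289, 608 and 381 RPKM in WT cultures and 255, 266 and 192 RPKM in Ucp1-KO cultures. All Ucp1-KO cultures were lower, and the mean was 55.9% of WT. Within the sum, the share of no binding protein separated the genotypes: Igfbp7 made up 53.7 ± 4.63% in WT and 58.4 ± 4.15% in Ucp1-KO, Igfbp4 32.8 ± 5.56% and 26.3 ± 5.21%, and both together 86.4 ± 1.52% and 84.7 ± 1.53% (SD, n = 3 each). Igfbp2 was a minor part, with 1.48 ± 0.642% of the sum in WT and 0.726 ± 0.210% in Ucp1-KO. The high-affinity carriers Igfbp2 to Igfbp6 exceeded the summed ligands 5.79-, 9.24- and 7.01-fold in WT and 4.37-, 4.76- and 4.86-fold in Ucp1-KO cultures. This ratio was lower in every Ucp1-KO culture, with a mean of 63.4% of that of WT.

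**Figure D4:**
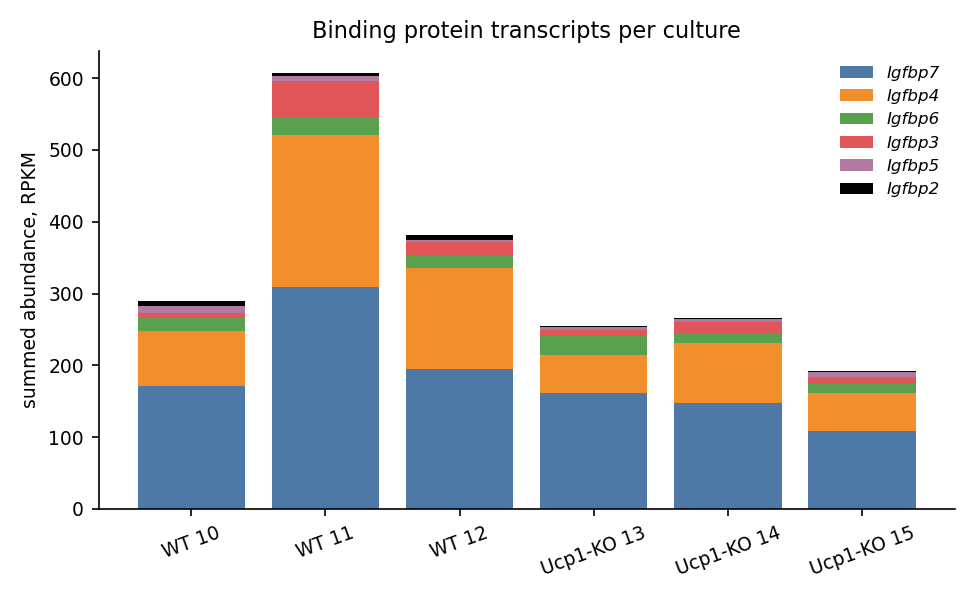
Summed abundance of the 6 binding protein transcripts in RPKM (vertical axis, from 0) in each culture (horizontal axis), divided by gene. Blue and orange, Igfbp7 and Igfbp4, fill most of every bar, and the 3 Ucp1-KO bars, from 192 to 266 RPKM, end below the lowest WT bar of 289 RPKM.

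Beyond the members, 34 further genes of the pathway were listed, of which 27 were abundant enough to be tested. None passed an adjusted p of 0.05 in limma or limma-voom. In limma, 2 genes were higher and 2 lower in Ucp1-KO at an unadjusted p under 0.05 (2.3% and 3.24% of all tested transcripts), 16 of 27 had the lower estimate in Ucp1-KO (50.4% of all tested), and the median log2 fold change was -0.056. The pair on the higher side were Irs1 and Irs2, the adaptors that carry signals of the insulin and IGF1 receptors to PI3 kinase. In WT cultures Irs1 was at 7.61, 6.19 and 8.03 RPKM, compared with 9.24, 10.2 and 11.1 RPKM in Ucp1-KO cultures, a log2 fold change of 0.44 (SE 0.12, adjusted p = 0.868 in limma). Irs2 measured 4.90, 4.46 and 4.38 RPKM in WT against 6.22, 5.90 and 6.08 RPKM in Ucp1-KO cultures, a log2 fold change of 0.34 (SE 0.092, adjusted p = 0.868 in limma). For both adaptors every Ucp1-KO culture lay above every WT culture.

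The pair on the lower side were Shc1 and Stc1. Shc1, the adaptor that leads from the receptors to the Ras pathway, was at 16.7, 22.1 and 18.0 RPKM in WT cultures and at 16.3, 15.2 and 13.6 RPKM without Ucp1 (log2 fold change -0.31, SE 0.13). Stc1, a stanniocalcin that inhibits PAPP-A, was at 8.94, 11.9 and 11.4 RPKM in WT cultures and at 6.17, 8.82 and 8.45 RPKM without Ucp1 (log2 fold change -0.42, SE 0.16). Neither overlapped between the genotypes, and the margin was small for both. Adjusted p-values in limma were 0.868 for both.

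No other gene of the lists had an unadjusted p under 0.05. Among proteases of binding proteins, Htra1 (25.4 ± 10.5 RPKM in WT cultures, 20.4 ± 1.76 RPKM in Ucp1-KO cultures) and Adam12 (15.9 ± 4.84 and 19.3 ± 4.75 RPKM) were most abundant. The transcript of PAPP-A itself was scarce, with Pappa at 1.05 ± 0.230 and 0.699 ± 0.224 RPKM. Grb10, an adaptor that restrains both receptors, was at 39.7 ± 7.79 and 33.8 ± 12.8 RPKM. Of the downstream kinases, Akt2 (42.9 ± 2.76 and 44.9 ± 2.502 RPKM) and the regulatory subunit Pik3r1 (36.9 ± 6.32 and 41.8 ± 6.82 RPKM) were highest. The growth hormone receptor Ghr, through which growth hormone induces Igf1, was at 154 ± 13.6 and 142 ± 28.4 RPKM, and Stat5a at 12.2 ± 0.809 and 11.9 ± 0.936 RPKM (SD, n = 3 each for all of these). Of the proteins that bind Igf2 mRNA, Igf2bp2 was at 8.05 ± 2.46 and 7.49 ± 2.18 RPKM and Igf2bp3 at 0.612 ± 0.282 and 0.693 ± 0.135 RPKM. The imprinted RNA H19, next to Igf2, varied widely, at 3.36, 10.8 and 3.04 RPKM in WT cultures and 9.38, 0.887 and 11.6 RPKM in Ucp1-KO cultures. Igfals, which encodes the third partner of the circulating IGF complex, stayed below 1 RPKM in all cultures, and Irs4 and Igfbpl1 were listed at 0.

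**Figure D5:**
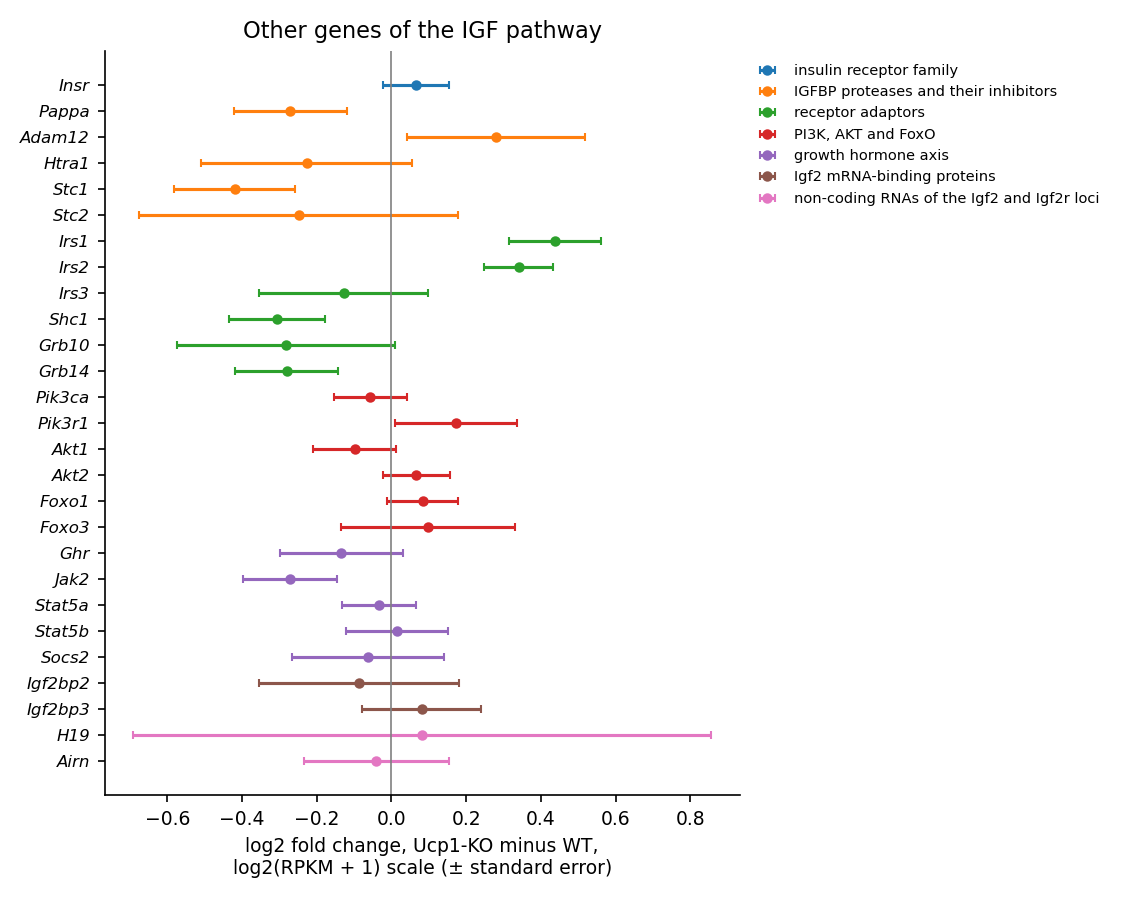
Log2 fold change between Ucp1-KO and WT on the log2(RPKM + 1) scale (horizontal axis) of the 27 tested genes of the wider pathway, coloured by list. Points are limma estimates and bars standard errors (3 cultures per genotype); Irs1 and Irs2 lie at 0.44 and 0.34, Stc1 and Shc1 at -0.42 and -0.31.

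Among 9991 genes with a mean of at least 2 RPKM, those whose log2 abundance ran most like that of Igfbp2 over the 6 cultures were Arel1 (Pearson's r = 0.98), Rabgef1 (0.97) and Scd2 (0.96), the last a fatty acid desaturase at 674, 652 and 657 RPKM in WT cultures and 456, 511 and 473 RPKM in Ucp1-KO cultures. For Igfbp7 they included Shc1 (0.997) and Aldh1a2 (0.995), a retinoic acid-forming enzyme. These genes were picked for the highest r out of many, and the 6 points share their libraries. A rank correlation of 1 was reached by 2 genes for Igfbp2 and by 84 genes for Igfbp7, whose order over the cultures was thus shared by more genes.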

How the data were processed

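RNA sequencing libraries of 3 WT and 3 Ucp1-KO cultures were analysed, grouped by sample label. The authors prepared TruSeq RNA libraries, aligned single reads to mouse build 38 and deposited RPKM values per transcript, for which only reads with a unique position were assigned (Genomatix). The submitters' processing notes name CASAVA and bcl2fastq.

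RefSeq rows with a mean of at least 0.5 RPKM (16865 of 28890; all 10 members) were compared in limma 3.58.1 (R 4.3.3; empirical Bayes, intensity trend, log2(RPKM + 1) scale, Benjamini-Hochberg adjustment, threshold 0.05), and single genes by exact two-sided permutation tests. Fold changes are on this log2 scale. Members and lists were chosen with earlier results of these data known. Named are all members, Ucp1, the 2 most abundant genes of each pathway and marker list, pathway genes with an unadjusted p under 0.05, and the 3 genes most like Igfbp2 and Igfbp7. Pappa, Igfbpl1, Irs4, Pax7, Myh11, Dpp4, Pdgfra, Dcn and Lum were added after their values were seen. A result for 1 gene is not reported here.

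Read numbers, recovered as whole multiples with a tolerance of 0.02 reads plus rounding, were whole for 16859 tested rows (99.96%) and used for limma-voom. The closest libraries of 1 genotype differed by a chi-square of 11.4 per transcript. Scripts were tested on simulated data. The planned sum over RefSeq rows, no minimum, all annotations, median-of-ratios scaling and single cultures left out are given under the alternatives. Leaving Ucp1 out of the brown adipocyte markers was chosen after seeing the data. Gene positions are from GENCODE M21 (GRCm38), promoters from RefSeq (10 of 10 members matched).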

Additional observations from a re-analysis of the deposited data

How the results depend on the processing

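No member passed an adjusted p of 0.05 under any alternative run, nor did a gene of the wider pathway, for which the sum over RefSeq rows was not run, and 8 of 10 members kept the sign of their estimate in all of them. Without a minimum abundance, limma made 22 calls over all transcripts, 20 of them with a mean under 0.5 RPKM and 0 of them members, 1456 transcripts had an unadjusted p under 0.05 in place of 935, and 2 members in place of 4. With the transcripts of all annotations 5193 had an unadjusted p under 0.05 in limma, and with median-of-ratios scaling 1000 had one. The number of members stayed at 4 in both. The share of Igfbp7 and Igfbp4 in the summed binding proteins, 85.6% over the 6 cultures, was 90.5% when all RefSeq rows of a gene were summed, which counts shared reads more than once, and 85.1% to 85.9% without single cultures.

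Single cultures decided most unadjusted calls. Leaving out 1 culture gave 317 to 1754 transcripts and 1 to 7 members with an unadjusted p under 0.05: 7 without WT 10, 1 without WT 11, 2 without WT 12, 2 without Ucp1-KO 14 and 1 without Ucp1-KO 15. The estimate of Igf2 turned to -0.024 without WT 10, -0.031 without WT 11 and -0.13 without Ucp1-KO 13 (range -0.13 to 0.12), and that of Igfbp5 to 0.047 without WT 10 (range -0.60 to 0.047). The cause was not tested. Of the 3 genes most like Igfbp2, 2 remained under 0.1 RPKM in the logarithm and under Spearman's rho. For Igfbp7, 2 remained under 0.1 RPKM, and Spearman's rho, at which 84 genes tie, gives no ranking. No paired analysis was possible because the genotypes share no replicate numbers. Igfbp2 in Ucp1-KO rests on 22 to 59 reads and Igf2 on 66 to 112.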
